A study of Mus musculus with 109 samples.

Results

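Semaphorins are secreted or membrane-bound guidance proteins, and plexins are the receptors that bind them. Sema6a, a transmembrane semaphorin, and plexin-A2 act in the migration of cerebellar granule cells. Sema6a is known from the inner external granular layer, where granule cells have left the cell cycle, and plexin-B2, a receptor for class 4 semaphorins, from dividing granule cell progenitors (GCPs). Sema6d is a relative of Sema6a that also binds class A plexins, and Plxna4 encodes another receptor of Sema6a. The genes taken here were these 2 ligands and 3 receptors, chosen by name. Of the 5 genes, 4 were among the 15973 genes of the table: Sema6a, Sema6d, Plxna2 and Plxnb2. Plxna4 was not analysed here.

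The data were read counts per gene in single cells of a GCP preparation from the brain of C57BL/6 mice at postnatal day 7, each made into its own Smart-seq library. No genotype, treatment or second age was compared, and by their labels the cells came in 6 library groups with 18 or 19 in each. Levels are given as CPM, that is 1000000 times the count of a gene over the total count of its cell. Cells with at least 100 CPM of Mki67, a gene of cycling cells, are called Mki67-high, and cells under 10 CPM are called Mki67-low. There were 32 Mki67-high and 75 Mki67-low cells, each library group held 3 to 8 of the former and 10 to 15 of the latter, and 2 cells with 66.4 and 21.3 CPM lay between the limits. The lowest Mki67-high cell had 132 CPM and the highest Mki67-low cell had 9.27 CPM.

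In mean summed counts, the classes matched the genes taken as checks, though not every gene of dividing or of differentiating cells. Over the 6 library groups, the CPM of summed counts (mean ± SD, n = 6) was 1598 ± 996 in Mki67-high and 154 ± 195 in Mki67-low cells for Top2a, a topoisomerase of dividing cells, and 200 ± 106.8 and 96.6 ± 103.03 for Pcna, the replication clamp. It was 712 ± 583 and 2811 ± 873 for Dcx, a microtubule protein of young neurons, 758 ± 431 and 1879 ± 690 for the neuronal tubulin Tubb3, and 108.2 ± 68.6 and 199 ± 76.4 for the neuronal splicing factor Rbfox3. Atoh1, the transcription factor that marks GCPs, stood at 79.5 ± 141 and 5.77 ± 11.4 CPM. Cell by cell the match was looser. Top2a reached 10 CPM in 25 of 32 Mki67-high and in 17 of 75 Mki67-low cells, with up to 5592 CPM in the latter. An Mki67-low cell is therefore not always one without genes of division. Total counts ran from 15071 to 8616017 per cell, with class medians of 4157698 in Mki67-high and 3580460 in Mki67-low cells. Mki67-high cells also had more detected genes (median 4967.5 against 4193). Genes of astroglia were carried by 5 cells, 3 Mki67-high and 2 Mki67-low, and 3 cells had an unusual depth (2 with over 10000 detected genes, 1 with under 100000 counts). All of these cells were kept unless stated. Summed over each list of 8 genes, astroglial genes were at 349 to 2585 CPM in the library groups of Mki67-high and 342 to 3866 CPM in those of Mki67-low cells. Oligodendrocyte genes were at 54.2 to 2381 and 229.5 to 1288 CPM, and the 7 listed genes of GABAergic neurons at 282 to 1174 and 225 to 1213 CPM. Single GABAergic genes went in opposite directions, which their sum hides. Gad1 was at 3.11 ± 5.77 and 239 ± 269 CPM and Pax2 at 0.41 ± 0.52 and 42.8 ± 38.8 CPM, while Lhx1 was at 703 ± 285 and 311 ± 164 CPM. The part of GABAergic genes in the results was not tested. Microglial and endothelial genes were near 0 in Mki67-low cells, where the summed level of each list was at most 3.3 and 24.6 CPM in any library group, against at most 206.7 and 43.6 CPM in Mki67-high cells, and their part in the results was not tested.

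Low counts were common, and a single count did not separate cells with a gene from cells without it. Mki67 itself had a count in 57 of 75 Mki67-low cells, and in 49 of these it was 1 to 5 counts. Sema6a was counted in every cell, Plxnb2 in 99 cells, Plxna2 in 78 and Sema6d in 67. At 10 CPM, the limit that also bounds the Mki67-low class, Sema6a was present in all but 6 cells, and the other numbers were 57, 38 and 35 cells. Shares of cells are therefore given at 1 count, which was the limit first planned for them, and at 10 CPM as an alternative. Their 95% Wilson intervals cover only the error of counting cells, not the spread between library groups.

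Sema6a was the most abundant of the 4 genes and Sema6d the least. The genes lie at chr18:47235598-47368870 (Sema6a, minus strand), chr2:124089969-124667770 (Sema6d, plus strand), chr1:194618218-194816869 (Plxna2, plus strand) and chr15:89155549-89180788 (Plxnb2, minus strand) in GENCODE vM21 on GRCm38, and no exon of another annotated gene overlapped their exons. To compare genes, the mean CPM of each library group was divided by the summed length of the gene's exons, which is 8.778 kb for Sema6a, 10.559 kb for Sema6d, 17.174 kb for Plxna2 and 7.72 kb for Plxnb2. Sema6a stood at 139.6 ± 54.5 CPM per kb (SD, n = 6 library groups), from 79 to 241 among the groups. Plxnb2 followed with 84.5 ± 60.1 CPM per kb, from 28.2 to 169. Plxna2 had 15.9 ± 11.5 CPM per kb and Sema6d had 11.8 ± 7.30 CPM per kb. No neighbours in this order differed beyond their spread in an exact two-sided sign-flip test of the log2 ratio over the 6 library groups. Sema6a exceeded Plxnb2 in 4 of 6 groups (p = 0.125), Plxnb2 exceeded Plxna2 in 5 of 6 (p = 0.09375) and Plxna2 exceeded Sema6d in 5 of 6 (p = 0.53125). The smallest p that this test allows with 6 groups is 0.031. The labels do not say whether library groups are separate animals, so these p-values measure only the spread between library groups.

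**Figure D1:**
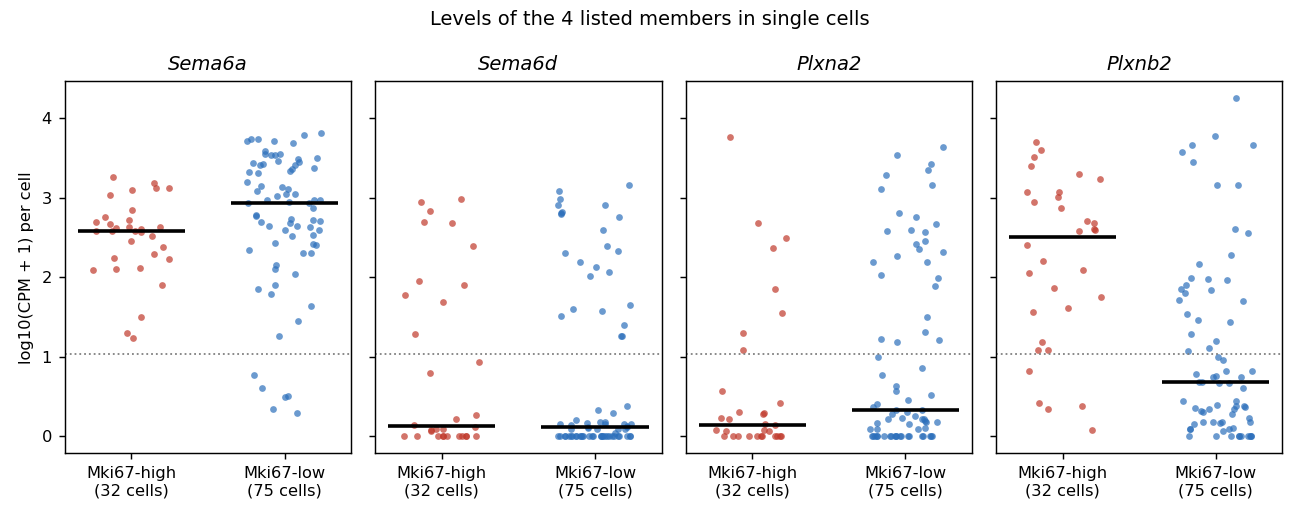
Each point is a cell, the vertical axis is log10(CPM + 1) of the gene named above the panel, the black lines are medians and the dotted line marks 10 CPM. Sema6a lies above the dotted line in 32 of 32 Mki67-high and 69 of 75 Mki67-low cells, while Plxnb2 does so in 27 of 32 and 28 of 75.

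Sema6a was lower in Mki67-high than in Mki67-low cells in the summed counts of all 6 library groups, but it was not called. In single Mki67-high cells its level had a median of 383 CPM, with a lowest value of 16.3 and a highest of 1797. In Mki67-low cells the median was 853 CPM, and values ran from 0.99 to 6520. The ranges overlapped, and the cells with the highest levels were Mki67-low: 33 of 75 Mki67-low and 6 of 32 Mki67-high cells had at least 1000 CPM. The summed counts of the library groups had a lowest value of 187, a median of 406 and a highest of 776 CPM in Mki67-high cells, against 656, 1556 and 2886 CPM in Mki67-low cells. The 2 sets overlapped only by library group 6, whose Mki67-low cells (656 CPM) lay under the highest Mki67-high value.

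The log2 fold change of Sema6a (Mki67-high over Mki67-low) was -2.11 (SE 0.44, n = 6 library groups), with an unadjusted p of 0.000185 and an adjusted p of 0.149 in edgeR's quasi-likelihood test with Benjamini-Hochberg adjustment over 9084 genes. At an adjusted p under 0.01, edgeR called 2 of the 9084 genes (0.022%), both higher in Mki67-high cells, and 0 when library group was a block. An unadjusted p under 0.05 was found for 7.14% of the genes, and 3.2% of the genes were lower in the sums of all 6 library groups. DESeq2 on the same sums called 2.99% of its genes and Sema6a among them (log2 fold change -1.89, adjusted p = 0.00439). The median log2 fold change of all tested genes was -0.18. The difference was smaller on a log scale per cell. The mean of log2(CPM + 1) per library group was 8.15 ± 0.57 in Mki67-high and 9.08 ± 0.97 in Mki67-low cells, a difference of -0.93 (SD 1.16), negative in 5 of 6 groups (exact two-sided sign-flip p = 0.09375). Library group 6 went the other way, and without it the difference was -1.34 in 5 of 5 groups (exact p = 0.063, the smallest that 5 groups allow). With classes drawn by Top2a in place of Mki67, the log2 fold change of the sums was -0.37.

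Sema6d showed no difference between the classes that exceeded its spread. The gene was absent or nearly so in most cells and exceeded 100 CPM in a minority. In Mki67-high cells it had a median of 0.36 CPM and a highest value of 956, and in Mki67-low cells a median of 0.33 CPM and a highest value of 1431. Sums of the library groups ran from 0.22 to 289 CPM in Mki67-high and from 33.1 to 326 CPM in Mki67-low cells, with means of 128 ± 123 and 127 ± 104.96 (SD, n = 6). The log2 fold change was -0.10 with a standard error of 1.16 (edgeR adjusted p = 0.994), and its sign depended on the scaling, being 0.11 with the size factors of DESeq2. At 1 count Sema6d was found in 21 of 32 Mki67-high and 45 of 75 Mki67-low cells (exact two-sided sign-flip p = 0.96875). At least 10 CPM was reached in 11 of 32 Mki67-high cells (34.4%, interval 20.4 to 51.7%) and in 24 of 75 Mki67-low cells (32%, interval 22.5 to 43.2%).

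Plxna2 had a wide spread, and its difference between these classes did not pass the test on sums, on mean levels or on shares. Its median was 0.41 CPM in Mki67-high and 1.16 CPM in Mki67-low cells. At least 100 CPM was found in 4 of 32 Mki67-high and 21 of 75 Mki67-low cells. Sums of the library groups had a lowest value of 0.075, a median of 35.2 and a highest of 451 CPM in Mki67-high cells, against 63.3, 209 and 666 CPM in Mki67-low cells. One group of Mki67-high cells stood above the rest. The value of 451 CPM in library group 5 came with a cell of 5725 CPM, which held 83.1% of the CPM summed over Mki67-high cells. The log2 fold change was -1.56 (SE 1.31, edgeR adjusted p = 0.838), -3.45 without library group 5, -0.63 without library group 4 and -4.09 with library group as a block. The mean of log2(CPM + 1) differed by -1.61 (SD 1.88), with 5 of 6 groups negative (exact two-sided sign-flip p = 0.09375). At the planned limit of 1 count, Plxna2 was found in 21 of 32 Mki67-high and 55 of 75 Mki67-low cells. That share was lower in Mki67-high cells in 3 of 6 groups and higher in 2 (exact p = 0.5625). At least 10 CPM was found in 8 of 32 Mki67-high cells (25%, interval 13.3 to 42.1%) and 28 of 75 Mki67-low cells (37.3%, interval 27.3 to 48.6%). The share at 10 CPM was lower in Mki67-high cells in 5 of 6 groups (exact p = 0.09375).

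Plxnb2 reached 10 CPM in more of the Mki67-high cells, while its difference at the planned limit of 1 count did not pass the test. It reached 10 CPM in 27 of 32 Mki67-high cells (84.4%, interval 68.2 to 93.1%) and in 28 of 75 Mki67-low cells (37.3%, interval 27.3 to 48.6%). It reached 100 CPM in 20 of 32 and 12 of 75 cells (62.5% and 16%). The share at 10 CPM was higher in Mki67-high cells in all 6 library groups, by 33.3 to 76.9 percentage points (mean 49.2, SD 16.3, exact two-sided sign-flip p = 0.031, the smallest possible). Of the 9084 genes tested, 5.92% had a higher share in Mki67-high cells in all 6 groups. The difference was 47.3 points in 6 of 6 groups without the cells carrying astroglial genes or of unusual depth. At 1 count the shares were 32 of 32 and 65 of 75, higher in 4 of 6 groups by 14.5 points on average, which did not pass (exact p = 0.125). After thinning every cell to 1000000 counts they were 31 of 32 and 57 of 75 (exact p = 0.063).

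**Figure D2:**
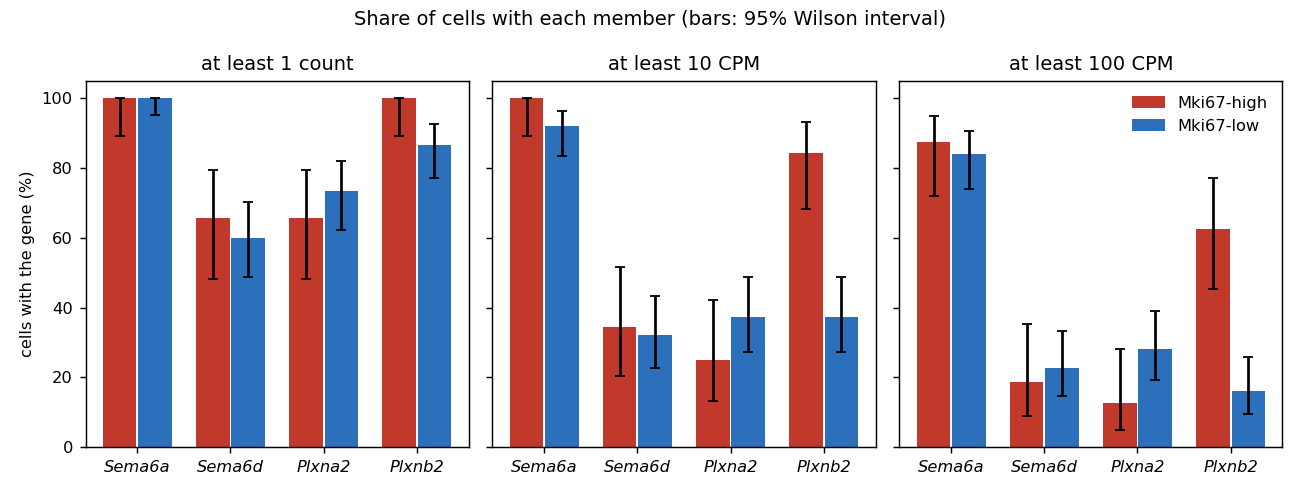
Bars give the percentage of 32 Mki67-high and 75 Mki67-low cells with each gene at 3 limits, with 95% Wilson intervals for counting error. At 10 CPM and at 100 CPM the intervals of the classes are apart for Plxnb2 and overlap for Sema6a, Sema6d and Plxna2. The intervals pool the cells of all library groups, so their overlap is not a test between the classes.

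The typical level of Plxnb2 was also higher in Mki67-high cells, while the difference of its summed counts did not pass the test. The median was 317 CPM in Mki67-high cells (lowest 0.22, highest 5041) and 3.89 CPM in Mki67-low cells (lowest 0, highest 17817). The mean of log2(CPM + 1) per library group was 7.66 ± 1.65 in Mki67-high and 3.51 ± 1.16 in Mki67-low cells. The 2 sets of 6 values did not overlap, with a lowest value of 5.96 in the former and a highest of 4.98 in the latter. The difference was 4.15 (SD 0.89), positive in 6 of 6 groups and between 2.61 and 4.86 (exact two-sided sign-flip p = 0.031), and 4.19 after thinning. Of all tested genes 7.88% were higher and 1.17% lower in all 6 groups on this scale. The limma fit of these means gave Plxnb2 an adjusted p of 0.0351 over 15972 genes, of which 0.0501% passed 0.05 and 0 passed 0.01 (1728 genes had an unadjusted p under 0.05, against 649 in edgeR). In the summed counts, library groups had a lowest value of 276, a median of 797 and a highest of 1976 CPM in Mki67-high cells, against 27.8, 550 and 2218 CPM in Mki67-low cells. These overlapped, and the log2 fold change of the sums was 0.44 (SE 0.79, edgeR adjusted p = 0.934). A few Mki67-low cells carried most of the counts: the 5 highest held 82.7% of the CPM summed over the class and 1 cell of library group 3 held 40.2%. The log2 fold change of the sums was 1.496 without library group 3, 0.16 without library group 1 and 0.14 without library group 2.

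**Figure D3:**
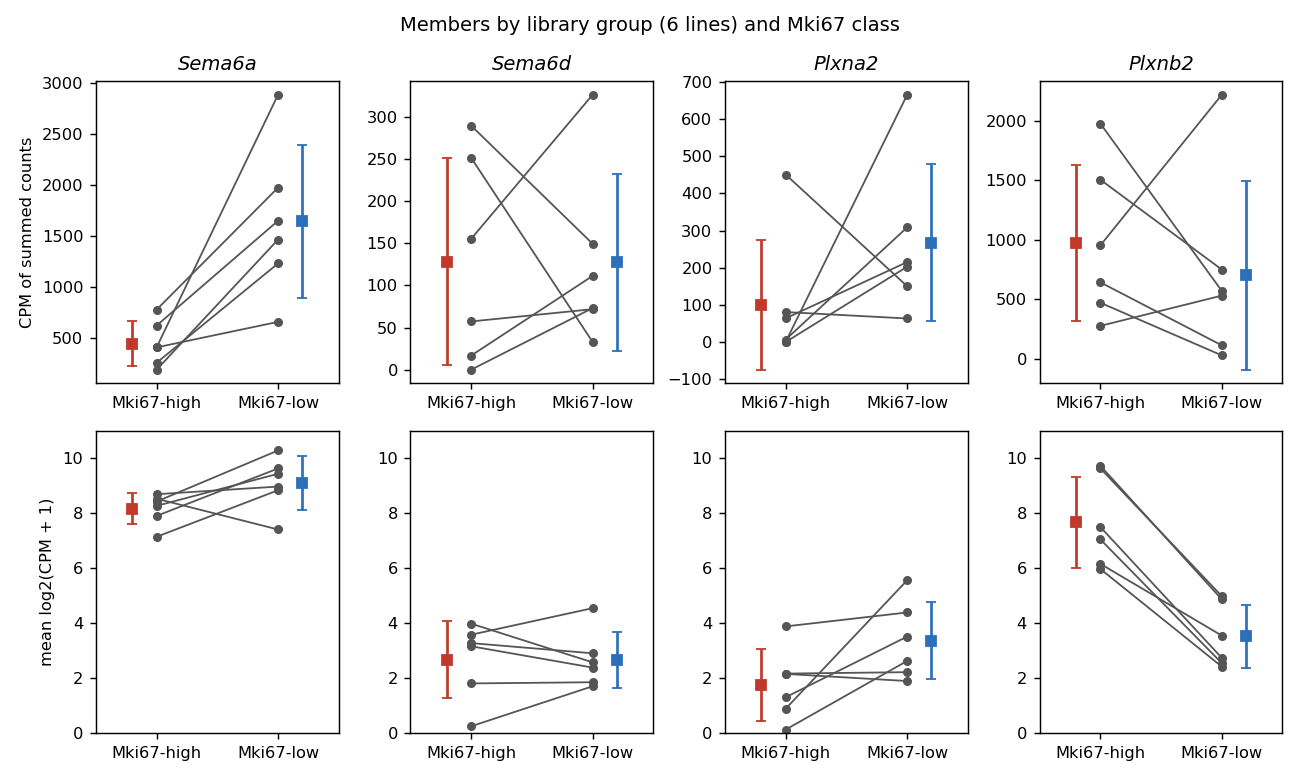
Each line joins the Mki67-high and Mki67-low cells of 1 of 6 library groups, as CPM of summed counts above and as mean log2(CPM + 1) below, and squares with bars are means ± SD over the groups. Sema6a sums are lower in Mki67-high cells along every line, and the mean log2(CPM + 1) of Plxnb2 is higher along every line.

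Plxnb2 was the member whose mean log2(CPM + 1) differed in the same direction in all 6 library groups, so the sequence before its start is shown. On the sums, Sema6a had the smaller unadjusted p in edgeR (0.000185, against 0.588 for Plxnb2). The RefSeq table of GRCm38.p6 gave 2 start sites of Plxnb2 on the minus strand. The 250 bases upstream of the outer start lie at chr15:89180789-89181038, and 69.2% of them are G or C. Both windows were searched for the E-box CANNTG, the motif bound by basic helix-loop-helix factors such as Atoh1. The motif reads alike on both strands, and overlapping matches were counted. The window of the outer start, printed here, held no match, which says only that these letters are not in it.
Plxnb2: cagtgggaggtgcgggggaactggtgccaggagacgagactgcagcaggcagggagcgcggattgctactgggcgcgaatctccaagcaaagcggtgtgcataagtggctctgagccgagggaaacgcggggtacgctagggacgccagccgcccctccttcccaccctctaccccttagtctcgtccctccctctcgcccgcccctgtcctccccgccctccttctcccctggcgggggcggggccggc
The window of the inner start (chr15:89173952-89174201, 63.6% G or C) held 1 match, CAGGTG, whose first base lies at position -201 from that start. Of 32851 windows of this length in the table, 66.2% held at least 1 E-box.

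Of the 2 cells between the class limits, the one with 21.3 CPM of Mki67 had 1457 CPM of Sema6a, 271 CPM of Plxnb2 and 666 CPM of Plxna2. The other was the cell with 15071 counts in all, where Mki67 had 1 count, Sema6a 25, Plxnb2 6 and Plxna2 2. The 5 cells carrying astroglial genes had at most 525 CPM of Sema6a. All 5 had at least 10 CPM of Sema6d, and 4 of 5 had at least 10 CPM of Plxna2.

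Levels of Dcx, which rises as granule cells differentiate, were set beside the 4 genes in 2 ways. All cells were first ordered by Dcx and divided into 4 bins, which held 14, 11, 7 and 0 Mki67-high cells from the lowest to the highest. The median of Sema6a was 398, 497, 927 and 872 CPM in these bins. Plxna2 reached 10 CPM in 4 of 28, 9 of 27, 13 of 27 and 12 of 27 cells, and Plxnb2 in 16 of 28, 20 of 27, 13 of 27 and 8 of 27. Sema6d reached 10 CPM in 6 of 28, 9 of 27, 10 of 27 and 10 of 27 cells. Spearman's rho with Dcx over all cells was 0.20 for Sema6a, 0.14 for Sema6d, 0.25 for Plxna2 and -0.23 for Plxnb2, given as a description because cells of a library group share their preparation. Plxnb2 also had a rho of 0.33 with the number of detected genes. The Mki67 classes enter these values: within the 75 Mki67-low cells rho with Dcx was 0.10, 0.07, 0.18 and -0.08. Within the 32 Mki67-high cells, Sema6d had a rho of 0.56 with Dcx and of 0.34 with the number of detected genes.

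**Figure D4:**
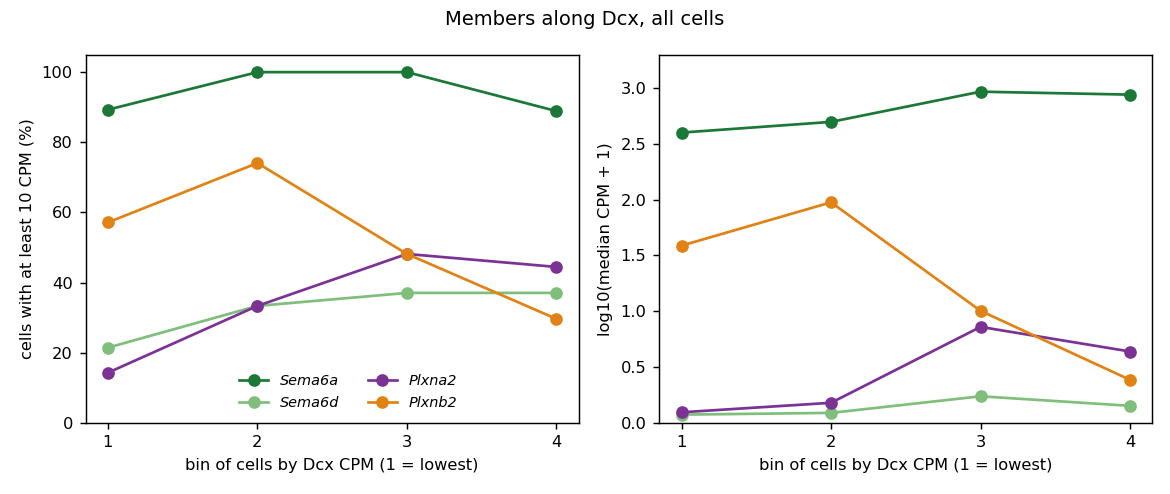
The horizontal axis gives 4 bins of all cells by Dcx CPM, with the percentage of cells with at least 10 CPM on the left and log10(median CPM + 1) on the right. The percentage with Plxnb2 ends at 29.6% in the bin with most Dcx, and that with Plxna2 goes from 14.3% in the lowest to 44.4% in the highest bin.

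Among the Mki67-low cells, 37 with more than the median Dcx of 1781 CPM were compared with the other 38. No member differed beyond its spread. The median of Sema6a was 872 CPM in Dcx-high and 657 CPM in Dcx-low cells, and 34 of 37 and 35 of 38 cells reached 10 CPM. Plxna2 reached 10 CPM in 15 of 37 and 13 of 38 cells, Sema6d in 13 of 37 and 11 of 38, and Plxnb2 in 11 of 37 and 17 of 38. In edgeR the log2 fold changes of the sums (Dcx-high over Dcx-low, n = 6 library groups) were -0.08 (SE 0.51) for Sema6a and 0.10 (SE 1.21) for Plxna2. They were -0.13 for Sema6d and -2.65 (SE 1.45) for Plxnb2, and each adjusted p was 0.999. For Plxnb2 the value was 0.13 without library group 3, where the highest sum of the Dcx-low cells (7707 CPM) was found. Of 6678 genes 0 were called at an adjusted p under 0.01 (0%), 4.97% passed an unadjusted p of 0.05, and DESeq2 on the sums called 402. In the exact two-sided sign-flip test of mean log2(CPM + 1), the differences were 0.50 for Sema6a (p = 0.3125), 0.31 for Sema6d (p = 0.75), 0.998 for Plxna2 (p = 0.21875) and -1.28 for Plxnb2 (p = 0.1875). A split of all cells at their median Dcx mixes the Mki67 classes. There, the mean log2(CPM + 1) of Plxna2 was higher in Dcx-high cells in 6 of 6 groups (difference 2.04, exact p = 0.031). Its log2 fold change of the sums in that split was 0.79 (SE 0.97, edgeR adjusted p = 0.998).

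Co-detection of Sema6a with the 2 plexins was nearly fixed by its presence in almost every cell. It had a count in every cell and at least 10 CPM in all but 6, so the number of cells with both genes could hardly depart from the product of the shares. At 10 CPM, Sema6a and Plxnb2 were both present in 55 cells (50.5% of all cells, where the product of the shares gives 49.4%), and Sema6a and Plxna2 in 37 (33.9%, product 32.9%). The 6 cells under 10 CPM of Sema6a, 2 of them with Plxnb2 and 1 with Plxna2, lay in 4 library groups. The difference between cells with and without Sema6a was positive in 3 and negative in 1 of these for both plexins (exact sign-flip p = 0.25 for each, where 4 groups allow no p under 0.125). At 100 CPM, over 5 library groups, the mean difference was -1.44 points for Plxna2 (exact p = 1) and 4.60 points for Plxnb2 (exact p = 0.75).

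Sema6d and Plxna2 were found in the same cells more often at 10 CPM, though not at every limit. At 10 CPM both were present in 18 cells (16.5%, product of the shares 11.2%). Plxna2 was present in 18 of 35 cells with Sema6d (51.4%) and in 20 of 74 cells without it (27%). The difference was positive in all 6 library groups, with a mean of 23.3 points (exact two-sided sign-flip p = 0.031, the smallest possible, of 4 pairs of a semaphorin and a plexin compared). It was 17.6 points in 6 of 6 groups without the cells carrying astroglial genes. At 100 CPM the mean difference was 17.02 points in 6 of 6 groups (exact p = 0.031). It was 18.5 points in 5 of 6 groups with thinned counts (exact p = 0.063), 12.7 points in 4 of 6 groups at 5 counts (exact p = 0.125) and 1.80 points at 1 count (exact p = 0.75). Within Mki67-low cells at 10 CPM it was 9.44 points in 4 of 6 groups (exact p = 0.46875). In Mki67-high cells, Plxna2 was present in 7 of 11 cells with Sema6d and in 1 of 21 without, with 4 of 5 library groups positive (exact p = 0.125). Of the 7 cells 3 carried astroglial genes, and without such cells the numbers were 4 of 8 and 1 of 21. There, both genes also varied with the number of detected genes (rho of 0.34 for Sema6d and 0.42 for Plxna2), and the part of this in their co-detection was not tested.

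Sema6d and Plxnb2 were both at 10 CPM in 17 cells (15.6%, product 16.8%). Plxnb2 was present in 17 of 35 cells with Sema6d and 40 of 74 without it, and the mean difference of -6.45 points had an exact p of 0.5. The sign depended on the limit, with 9.63 points at 1 count (4 groups positive, exact p = 0.125) and 3.70 points with thinned counts (exact p = 0.65625). At 100 CPM, 0 of 75 Mki67-low cells had both genes, which allows a share of up to 4%, while 17 had Sema6d and 12 had Plxnb2. The product of these shares also gives only few such cells, so the 0 does not show that the genes exclude each other.

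Counting all 4 genes at 10 CPM, Sema6a with Plxnb2 and neither other member was the most frequent combination in Mki67-high cells, with 17 of 32 cells (53.1%). In Mki67-low cells the combinations were spread more evenly: 16 of 75 cells had Sema6a alone, 15 had Sema6a with Plxnb2, 12 had Sema6a with Plxna2 and 10 had Sema6a with Sema6d. Both receptors and both ligands were present in 5 of 32 and 6 of 75 cells. The 5 Mki67-high cells included all 3 that carried astroglial genes. In a description chosen after the values were seen, the 28 Mki67-low cells with at least 10 CPM of Plxnb2 had a median of 521 CPM of Ccnd2, a cyclin of GCPs, against 28.9 CPM in the 47 other cells, and the mean log2 difference was positive in 6 of 6 library groups, as it was for 1.38% of all genes. Their median of Sema6a was 1198 CPM against 610, with 4 of 6 groups positive. The 28 Mki67-low cells with at least 10 CPM of Plxna2 had a median Dcx of 2633 CPM against 1419, with 6 of 6 groups positive, as for 0.958% of all genes. These were 2 of 10 such comparisons, and the other 8 had 1 to 4 groups positive.

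Other genes of the family were detected in at most as many cells as Plxna2. Of 9 plexin genes in a fixed list 8 were in the table, and next to Plxnb2 and Plxna2 the most widely detected were Plxna3 with 78 cells, Plxnc1 with 67 and Plxnb1 with 53, while Plxna1 had 17, Plxnb3 7 and Plxnd1 7. At 10 CPM, Plxna3 was present in 8 of 32 Mki67-high and 19 of 75 Mki67-low cells, and Plxnc1 in 14 of 32 and 16 of 75. Of the 20 semaphorins listed 16 were in the table. After Sema6a and Sema6d, the class 4 semaphorins Sema4b and Sema4g had counts in 64 and 59 cells, and Sema4c, a known ligand of plexin-B2, in 25. At 10 CPM Sema4g, the other such ligand, was present in 5 of 32 Mki67-high and 19 of 75 Mki67-low cells. Sema3d, Sema4f, Sema5a and Sema7a each had a count in 31 cells, Sema4d in 29 and Sema6c in 21, and the rest in 3 to 16 cells.

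None of these lists held a gene called by edgeR in either comparison. Of all genes tested, edgeR called 0.022% between the Mki67 classes and 0% between the Dcx classes, so lists of this size could hardly hold one. Of 13 semaphorins tested between the Mki67 classes, only Sema6a had an unadjusted p under 0.05, and of 6 plexins none did, where 7.14% of all genes did. The median log2 fold change was -0.75 for the semaphorins and -0.70 for the plexins, against -0.18 for all genes. Among 4 co-receptors tested, 2 adhesion proteins that associate with semaphorin receptors were lower in Mki67-high cells at an unadjusted p under 0.05. L1cam stood at 26.2 ± 42.6 in Mki67-high and 276 ± 202 CPM in Mki67-low cells (log2 fold change -3.77, SE 1.18, edgeR adjusted p = 0.452), and Nrcam at 75.8 ± 78.1 and 350 ± 228 CPM (log2 fold change -2.25, SE 0.97, adjusted p = 0.677). Of 26 effectors tested, 1 was higher and 1 lower at an unadjusted p under 0.05, which 7.14% of all genes passed. Rnd3, which encodes a small GTPase, was at 559 ± 196 and 148 ± 82.2 CPM (log2 fold change 1.91, SE 0.67, edgeR adjusted p = 0.547) and was higher in 6 of 6 groups. Dpysl2, a phosphoprotein of semaphorin signalling that binds tubulin, was at 5251 ± 1394 and 6909 ± 1023 CPM (log2 fold change -0.54, SE 0.21, edgeR adjusted p = 0.595). In the Dcx comparison, Dpysl2 had a log2 fold change of 0.55 in Dcx-high cells (SE 0.21, edgeR adjusted p = 0.993). There, the semaphorin Sema4f (163 ± 231 in Dcx-high and 4.48 ± 10.9 CPM in Dcx-low cells) and Dpysl4 (113 ± 152 and 7 ± 14.6 CPM) also had an unadjusted p under 0.05, as did 4.97% of all genes, and an adjusted p of 0.998 in edgeR.

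The genes whose levels were most alike over all cells were taken by Spearman's rho among 8169 other genes with a count in at least 22 cells. For Plxnb2 they were the histone variant gene H2afv (rho 0.56), Islr2 (0.55) and the cell surface proteoglycan gene Gpc3 (0.55), each with a higher median in Mki67-high cells. H2afv, for example, had medians of 362 and 56.9 CPM. Within the 75 Mki67-low cells the rho of these genes was 0.55, 0.43 and 0.34. For Plxna2 they were Mapt, which encodes the axonal protein tau (0.48), Zmat4 (0.44) and Arid4a (0.42), with values of 0.51, 0.45 and 0.43 in Mki67-low cells. For Sema6a they were the phospholipase gene Plcb1 (0.36), Tmsb10 (0.35), the receptor phosphatase gene Ptprs (0.35), Aplp1 (0.34) and the growth cone gene Gap43 (0.34), whose medians were 7.72 CPM in Mki67-high and 238 CPM in Mki67-low cells. For Sema6d they were Xiap (0.36), Kbtbd11 (0.36) and Slc30a4 (0.35). Of all genes compared, 1% had a rho above 0.24 with Sema6a, 0.27 with Sema6d, 0.29 with Plxna2 and 0.39 with Plxnb2. The cells share library groups and differ in depth, so these values are descriptions and carry no p.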

How the data were processed

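Single cells of the GCP preparation were captured on C1 Fluidigm chips and made into Smart-seq libraries. The authors aligned reads to mm10 with STAR 2.4.1d, counted them per gene with HTSeq-count 0.6.1 and deposited raw counts without normalization. The annotation and strand setting are not given in the sources used here. Genes in the table had a count in at least 3 cells. Libraries carry no molecular identifiers. The Wilson intervals treat cells as independent draws and cover only the error of counting cells.

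Each column was assigned to the cell whose title holds its number, and library groups were numbered in the order of the listing. All 109 cells were kept, and no doublet caller was used. Counts were summed per class and library group, low genes were removed with filterByExpr, and sums were normalized by TMM and compared with edgeR 4.0.16 (quasi-likelihood, R 4.3.3). Genes with an adjusted p under 0.01 were called, and the gene that defined the classes was not tested. Levels per cell were averaged as log2(CPM + 1) per library group for limma 3.58.1 and for exact sign-flip tests, which went through all sign changes. Wilson intervals came from scipy 1.17.1. DESeq2 1.42.0 was an alternative. The fits were also run on simulated counts with less spread than the real sums, which cannot show how the fits perform on these data. A library group marks cells that share it, so it pairs the classes in the sign-flip tests and in limma. The main edgeR fit held no term for library group, which entered as a block in an alternative fit. Cells carrying astroglial genes had at least 5 of 8 marker genes at 50 CPM or more. Exon lengths came from GENCODE vM21.

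The text names the members, class checks, genes of the semaphorin, plexin, co-receptor and effector lists with an unadjusted p under 0.05 (up to 5 per direction), and the genes most alike each member by rho. The members and lists were chosen with earlier results of these data known. The alternatives were other normalizations and filters, a block for library group, each library group left out, other limits and class genes, thinned counts, and fits without doubted cells. The limit of 100 CPM for shares, unscaled library totals, shares without doubted cells or a library group, and co-detection in Mki67-high cells without astroglial genes were added after the values were seen.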

Additional observations from a re-analysis of the deposited data

Results flagged for a closer look

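Of 16 sets of 6 library groups (4 genes, 2 Mki67 classes, sums and mean log2 values), 2 held a library group farther from the others than Dixon's limit of 0.625 of the range, where chance flags about 1 in 20 sets. Plxna2 in the Mki67-high cells of library group 5 had 451 CPM in the sums, while the other groups had 0.075 to 80.7 CPM. Plxnb2 in the Mki67-low cells of library group 3 had 2218 CPM in the sums, while the other groups had 27.8 to 749 CPM. In both cases the mean log2(CPM + 1) of the same cells was within the limit.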

How the results depend on the processing

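Library group was not in the main edgeR fit. As a replicate block it pairs the classes, and it changed the call of no member. With the block, the log2 fold change between the Mki67 classes was -2.03 for Sema6a (edgeR adjusted p = 0.0903) and -1.06 for Sema6d (0.977). It was -4.09 for Plxna2 (0.792) and 1.19 for Plxnb2 (0.848). Between the Mki67 classes the number of called genes was 6 at an adjusted p under 0.05 in edgeR and 376 in DESeq2 on sums. It was 0 with the block, 0 with limma on mean log2(CPM + 1) and 0 with Top2a classes. It was 1 without cells carrying astroglial genes, 1 without cells of unusual depth and 1 with thinned counts, and 0 to 1 without 1 library group. DESeq2 on sums called 402 genes between the Dcx classes. The cause of these differences was not tested. Of the members, DESeq2 on sums called Sema6a (log2 fold change -1.89). In edgeR the value of Sema6a was -2.21 to -1.77 without 1 library group, and it was called in none of these fits.

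Between the Mki67 classes, the log2 fold change of Sema6d turned to 0.11 with DESeq2 size factors, 0.021 with library totals, 0.086 in DESeq2, 0.015 in limma, 0.091 without cells carrying astroglial genes, 0.12 without cells of unusual depth and 0.13 with Top2a classes, and it was -0.53 to 0.46 without 1 library group. Its difference in mean log2(CPM + 1) turned to -0.018 with log2(CPM + 10), -0.17 without cells carrying astroglial genes, -0.20 without cells of unusual depth, -0.074 with thinned counts and -0.11 with Mki67 at 200 CPM or more, and was -0.26 to 0.31 without 1 library group. Its difference in share was -1.49 points at 10 CPM, -5.06 at 100 CPM and -2.77 with thinned counts, against 0.53 at 1 count. At 10 CPM it was -5.12 to 2.22 points without 1 library group. The log2 fold change of Plxnb2 was -0.078 with Top2a classes. Its difference in mean log2(CPM + 1) was 4.01 to 4.46 and its share difference at 10 CPM 43.7 to 52.4 points without 1 library group, where 5 groups cannot pass the test. Its share difference passed the test at 5 counts (32.1 points), 10 CPM (49.2) and 100 CPM (51.3), but not at 1 count (14.5) or with thinned counts (22.8). With all cells under 100 CPM of Mki67 as the low class, the difference in mean log2(CPM + 1) of Plxna2 was -1.76 and passed.

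Between the Dcx classes, the log2 fold change of Sema6a turned to 0.26 with the block, 0.50 in limma and 0.16 with all cells split, and was -0.31 to 0.43 without 1 library group. That of Sema6d turned to 0.72 with the block, 0.31 in limma, 0.022 without cells carrying astroglial genes and 0.99 with all cells split, and was -0.52 to 0.63 without 1 library group. That of Plxna2 turned to -0.058 with library totals and -0.19 with thinned counts, and was -0.27 to 0.90 without 1 library group, while its difference in mean log2(CPM + 1) was 2.04 and passed with all cells split. That of Plxnb2 was -3.65 to 0.13 without 1 library group. The difference in mean log2(CPM + 1) of Sema6d was -0.43 to 0.87 without 1 library group.

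For co-detection, Sema6a with Plxna2 turned to -1.44 points at 100 CPM. Sema6d with Plxna2 passed at 10 CPM (23.3 points) and 100 CPM (17), not at 5 counts (12.7) or with thinned counts (18.5), and was -5.34 to 8.59 points at 1 count without 1 library group. Sema6d with Plxnb2 was 9.63 points at 1 count and turned to -4.40 points at 5 counts, -6.45 at 10 CPM and -17.8 at 100 CPM. Of 387 alternative values, 306 kept their direction and their side of the threshold.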
